A study of Mus musculus with 6 samples.

Results

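Expression of 53 genes that drive and control the cell cycle was examined in TM3 cells, a line from the mouse testis that the labels call testicular somatic and that derives from Leydig cells, which make testosterone. The genes were chosen by name: cyclins, cyclin-dependent kinases (CDKs) and their CDC25 phosphatases, CDK inhibitors and pocket proteins, E2F and mitotic transcription factors, mitotic kinases, spindle checkpoint and kinetochore proteins, spindle motors and 2 chromosome proteins that mark dividing cells. All 53 had a probe on the array, among 23462 named genes. PNP arrays held RNA of TM3 cells exposed for 24 h to 10 µM 4-nitrophenol (PNP, also written nPNP in the labels), a phenol formed from parathion and found in diesel exhaust, and control arrays held RNA of cells given 0 µM for the same time. Each group had 3 samples, each on its own Agilent array in a single colour. Whether the samples of a group were separate cultures is not given in the labels. The p-values therefore set each difference between groups only against the scatter of these samples, and that scatter may be technical.

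Cells pass through the cycle as successive cyclins bind and activate their kinases. D cyclins with CDK4 and CDK6, then E cyclins with CDK2, phosphorylate the retinoblastoma protein, which frees E2F factors to switch on the genes of S phase. B cyclins with CDK1 carry the cell into mitosis, and the spindle checkpoint holds it there until every chromosome is attached. Many mitotic genes peak together late in the cycle, because the MuvB complex binds the CHR element of their promoters, with B-MYB and FOXM1 when they are on and with pocket proteins and E2F4 when they are off. TM3 was derived from immature mouse testis and grows in culture, whereas Leydig cells of the adult testis seldom divide. In RNA pooled from a whole culture, fewer cells in a phase and less RNA per cell cannot be told apart.

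Promoters were read from RefSeq (GRCm38.p6) as 300 bases around each gene's start, most of them upstream, and 43 of the 53 genes had an entry. The 6 shown here belong to the 4 genes of smallest unadjusted p in each direction of PNP minus control, so far as they had an entry, while Kif20a and Ccne2 are named only. Capitals mark the CHR element (TTTGAA or TTCGAA), the CCAAT box bound by NF-Y (CCAAT) and an E2F motif (TTTCCCGC, TTTGGCGC, TTTCGCGC or TTTGCCGC). All motifs were searched on both strands and each was counted whether or not it overlapped another. Ccnb2 (chr9:70421505-70421804, minus strand), Cdc25b (chr2:131186698-131186997, plus strand) and Kif11 (chr19:37376132-37376431, plus strand) held a CHR element and a CCAAT box, and Anln (chr9:22389157-22389456, minus strand) held CHR elements alone. E2f7 (chr10:110745189-110745488, plus strand) and Cdk2 (chr10:128705002-128705301, minus strand) each held an E2F motif and at least 1 CCAAT box but no CHR element.
Ccnb2: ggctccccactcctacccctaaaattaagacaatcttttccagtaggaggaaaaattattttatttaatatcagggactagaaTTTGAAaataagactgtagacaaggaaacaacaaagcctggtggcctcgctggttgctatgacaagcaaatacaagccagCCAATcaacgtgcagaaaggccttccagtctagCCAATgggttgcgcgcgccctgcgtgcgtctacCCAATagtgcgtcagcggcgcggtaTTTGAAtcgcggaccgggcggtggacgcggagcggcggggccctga
Cdc25b: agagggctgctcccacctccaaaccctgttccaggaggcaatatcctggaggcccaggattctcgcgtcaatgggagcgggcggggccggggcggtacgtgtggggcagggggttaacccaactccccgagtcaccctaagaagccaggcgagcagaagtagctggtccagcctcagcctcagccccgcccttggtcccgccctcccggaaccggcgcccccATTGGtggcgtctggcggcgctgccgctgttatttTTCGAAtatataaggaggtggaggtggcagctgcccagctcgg
Kif11: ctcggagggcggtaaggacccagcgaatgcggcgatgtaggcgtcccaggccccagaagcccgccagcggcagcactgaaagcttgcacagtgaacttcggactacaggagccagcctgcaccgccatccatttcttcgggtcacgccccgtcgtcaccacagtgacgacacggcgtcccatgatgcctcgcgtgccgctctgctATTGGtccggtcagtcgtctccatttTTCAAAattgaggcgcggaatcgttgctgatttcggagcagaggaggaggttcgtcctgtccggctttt
Anln: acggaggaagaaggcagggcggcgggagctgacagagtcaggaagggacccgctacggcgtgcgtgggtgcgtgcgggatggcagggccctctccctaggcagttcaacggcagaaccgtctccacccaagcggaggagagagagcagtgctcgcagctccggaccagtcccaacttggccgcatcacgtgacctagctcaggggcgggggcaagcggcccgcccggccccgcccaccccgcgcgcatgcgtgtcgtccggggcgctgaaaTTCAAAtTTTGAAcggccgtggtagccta
E2f7: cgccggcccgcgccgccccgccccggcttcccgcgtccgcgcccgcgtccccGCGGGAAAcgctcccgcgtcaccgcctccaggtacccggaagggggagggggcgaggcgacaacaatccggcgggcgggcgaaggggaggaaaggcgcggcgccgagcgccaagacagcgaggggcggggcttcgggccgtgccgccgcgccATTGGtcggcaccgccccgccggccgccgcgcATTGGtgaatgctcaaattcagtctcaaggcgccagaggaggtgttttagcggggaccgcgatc
Cdk2: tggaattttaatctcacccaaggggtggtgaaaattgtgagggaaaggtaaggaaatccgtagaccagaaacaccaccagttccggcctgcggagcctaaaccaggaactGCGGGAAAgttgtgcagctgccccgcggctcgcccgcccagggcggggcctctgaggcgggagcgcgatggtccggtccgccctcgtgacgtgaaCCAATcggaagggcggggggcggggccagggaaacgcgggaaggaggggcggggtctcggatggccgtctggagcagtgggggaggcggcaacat

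A CHR element occurred in at least 1 listed promoter of 26 of the 43 genes (60.5%), against 21.7% of 27025 genes with an entry. CCAAT boxes occurred in 31 (72.1% against 41.1%), and 2 or more boxes in 19 (44.2% against 13.3%). E2F motifs were held by 8 (18.6% against 2.61%), and 22 genes held both a CHR element and a CCAAT box (51.2% against 9.65%). By role, the CHR element was found for 7 of 8 mitotic kinase and checkpoint genes and all 6 spindle and cytokinesis genes with an entry. The E2F motif was found for 3 of 6 CDKs and CDC25 phosphatases, 2 of 5 inhibitors and pocket proteins and 3 of 6 transcription factors, but for no cyclin, mitotic kinase, kinetochore or spindle gene with an entry. A match of letters is a description of the window and does not show that a factor binds there.

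Signals are given as the log2 processed intensity minus the 75th percentile of the same array, called the scaled log2 signal. Zero thus lies at that percentile, and values of different genes come from different probes and cannot be ranked. Of all spots, 59.9 to 62.6% were well above background on PNP arrays and 61.8 to 62.3% on control arrays. No spot was saturated, and all 6 arrays lay on 1 slide. Outlier spots, marked by the scanner software as uneven or as population outliers, made up 11.54 to 13.2% of spots on PNP arrays and 6.53 to 9.07% on control arrays, and were left out. Of the Leydig markers with a probe, 2 of 7 (the steroid factor Nr5a1 and the cholesterol carrier Star) were above background on all 6 arrays, while Cyp11a1, Lhcgr and Hsd17b3 were above it on none. All 4 peritubular myoid markers, 4 of 6 Sertoli markers and 3 of 6 germ cell markers reached it on all 6 arrays. None of the 4 endothelial markers did so, and of 5 macrophage and leukocyte markers 3 did, while Adgre1 and Ptprc were above background on none. Passing background did not always mean a strong signal. Scaled log2 signals were -5.47 to -4.85 for Myh11, -4.42 to -3.82 for Prm2, -4.16 to -3.52 for Lyz2 and -4.36 to -3.77 for Star. Those of Acta2 were 3.35 to 3.49 and those of Tagln 2.20 to 2.39. The macrophage markers Csf1r and Cd68 had 1.18 to 1.40 and 0.26 to 1.12, and Nr5a1 had -2.17 to -1.68.

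The cell cycle genes were readily detected: 50 of the 53 had a probe well above background on all 6 arrays, as did 14661 of all 23462 named genes. Of the 53 genes 40 could be tested, 11 lost too many values to outlier spots, and 2 (Cdkn2a and Cdkn2b) lay below that level on every array. None of the 40 passed an adjusted p of 0.05 in limma's moderated test, with a lowest adjusted p of 0.740, and 0% of the 13138 genes tested passed it. At an unadjusted p below 0.05, 3 were higher with PNP (Kif20a, Cdc25b and Ccnb2), where 5.02% of all genes were, and 1 was lower (Anln), where 1.49% of all genes were. With each array left out in turn these counts ran from 0 to 5 higher and from 0 to 7 lower, both largest without PNP replicate 2. Over the same fits, 344 to 1745 of all 13138 genes passed that threshold in either direction, also most without PNP replicate 2. With all 6 arrays, 856 of them did. All 3 PNP values lay above every control value for 5 genes (Ccnb2, Cdc25b, E2f7, Bub3 and Kif20a, with 9.66% of all genes) and below every control value for 3 genes (Cdk2, Kif11 and Anln, with 3.75% of all genes), Kif11 only because a control spot was left out. The 40 differences had a median of 0.029, beside 0.043 for all genes, and 23 of them (57.5%) were positive, beside 63.0% of all genes. Scaling on the median of each array in place of its 75th percentile left 16 of the 40 positive, with 0 higher and 2 lower at an unadjusted p below 0.05. Of all 13138 genes, 663 passed that threshold in either direction with this scaling.

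The intervals show which sizes of change the arrays could have missed, given the scatter of these samples. That scatter may be technical, so the intervals do not bound a difference between separate cultures. The 95% interval of the difference lay within 1.5-fold either way for 34 of the 40 genes (84.4% of all genes) and within 2-fold for 39 (97.9% of all genes), the exception being Ccne2. The median interval was ± 0.29 on the log2 scale, beside ± 0.28 for all genes. Median differences by role ran from -0.19 for the 5 tested spindle and cytokinesis genes and -0.12 for the 6 transcription factors to 0.066 for the 6 mitotic kinase and checkpoint genes and 0.094 for the 6 CDKs and CDC25 phosphatases.

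**Figure D1:**
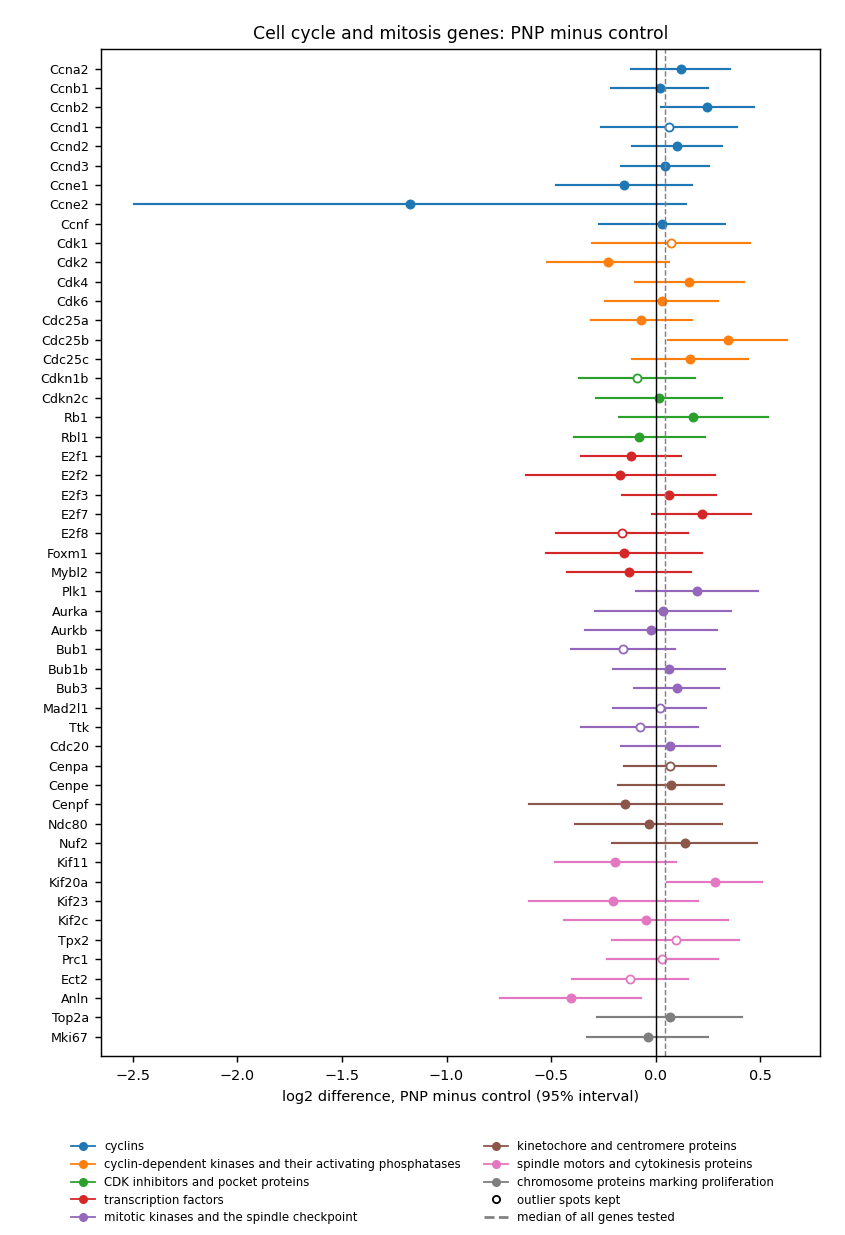
Log2 difference, PNP minus control, of each gene with a signal above background, as a point with its 95% interval (3 arrays a group, fewer where a spot was left out), coloured by role. Open points keep outlier spots, the dashed line is the median of all genes tested (0.043), and Ccne2 has by far the widest interval.

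Among cyclins, Ccnb2 had the lowest p-value. Ccnb2, a mitotic B cyclin that localises to the Golgi, had scaled log2 signals of 2.63, 2.42 and 2.46 on the PNP arrays, against 2.31, 2.22 and 2.25 on the control arrays. All PNP values lay above all control values, with a difference of 0.25 (SE 0.097, adjusted p = 0.74) and an unadjusted p of 0.0343. The promoter of Ccnb2 held 2 CHR elements and 3 CCAAT boxes, while that of Ccnb1 held 2 CCAAT boxes and no CHR element. Ccnb1, the main B cyclin of mitotic entry, gave 2.06, 2.07 and 1.90 on the PNP arrays, against 2.03, 1.88 and 2.07 on the control arrays. These overlapped throughout, and the difference was 0.018 (SE 0.10, adjusted p = 0.985). For Ccna2, the cyclin of S phase and early mitosis, the signals were 2.23, 2.37 and 2.20 on the PNP arrays, against 2.09, 2.07 and 2.28 on the control arrays. Control replicate 3 lay among the PNP values, and the difference was 0.12 (SE 0.10, adjusted p = 0.921).

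Cyclins of G1 did not pass either. Ccne1, which partners CDK2 at the start of S phase, measured 0.38, 0.61 and 0.11 on the PNP arrays, against 0.40, 0.65 and 0.50 on the control arrays. PNP replicate 3 was lowest, the groups overlapped, and the difference was -0.15 (SE 0.14, adjusted p = 0.938). It was -0.27 without PNP replicate 2 and -0.021 without PNP replicate 3. Its paralogue Ccne2 was dim, with -5.89, -4.36 and -5.94 on the PNP arrays, against -3.33, -3.92 and -5.42 on the control arrays. It was well above background on all 3 control arrays but on PNP replicate 2 alone among the PNP arrays, so its difference of -1.18 (SE 0.57, adjusted p = 0.805) includes PNP values below that level. The control values alone spanned more than this difference, which was -0.66 with normexp background correction, -0.73 without control replicate 1 and -1.77 without control replicate 3. Ccnd1, the D cyclin most tied to growth signals, had 3 outlier spots and could be read only with them kept. Its signals were then 2.44, 2.63 and 2.20 on the PNP arrays, against 2.45, 2.47 and 2.16 on the control arrays. Control replicate 3 and PNP replicate 3 were the lowest, and the difference was 0.063 (SE 0.14, adjusted p = 0.954). The remaining cyclins Ccnd2, Ccnd3 and Ccnf differed by 0.10, 0.044 and 0.030, each with overlapping groups.

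Of the kinases and their phosphatases, Cdc25b had the clearest separation. Cdc25b, the phosphatase that starts CDK1 activation at the centrosome, had -1.15, -1.46 and -1.34 on the PNP arrays, against -1.63, -1.83 and -1.52 on the control arrays. Each PNP value lay above each control value, by 0.34 on average (SE 0.12, adjusted p = 0.74, unadjusted p = 0.0238), and this is the only gene of the role whose 95% interval excluded 0. Cdk2, the kinase of S phase entry, ran the other way, with -0.85, -0.80 and -1.23 on the PNP arrays, against -0.74, -0.75 and -0.71 on the control arrays. The control values were close together and all PNP values were below them, PNP replicate 3 furthest, for a difference of -0.23 (SE 0.13, adjusted p = 0.846), or -0.093 without PNP replicate 3. Cdk4, which acts with D cyclins in G1, had 3.45, 3.39 and 3.16 on the PNP arrays, against 3.29, 3.12 and 3.11 on the control arrays. The lowest PNP value fell inside the control range, and the difference was 0.16 (SE 0.11, adjusted p = 0.897), or 0.032 fitted to values of the authors' deposited table and 0.027 with quantiles made equal between arrays.

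Cdk1, the kinase of mitosis itself, had 2 outlier spots and was read with them kept. Its signals were 2.74, 3.29 and 2.68 on the PNP arrays, against 2.92, 2.72 and 2.84 on the control arrays. PNP replicate 2 stood above all others while PNP replicates 1 and 3 were near the lowest control, and the difference was 0.075 (SE 0.16, adjusted p = 0.954). Cdk6 and the phosphatases Cdc25a and Cdc25c differed by 0.028, -0.069 and 0.16, with overlap in each.

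Brakes of the cycle were measured less completely. Cdkn2a and Cdkn2b, which encode the CDK4 and CDK6 inhibitors p16 and p15 (and, from Cdkn2a, the p53 activator ARF), had 2 probes each. Their scaled log2 signals lay between -7.93 and -7.46 on all 6 arrays, below the lowest signal well above background on each array (between -5.60 and -5.33). No difference can be read for either gene. Cdkn1b, which encodes the CDK2 inhibitor p27, had 5 outlier spots and gave, with them kept, 1.62, 1.87 and 2.03 on the PNP arrays, against 1.86, 1.99 and 1.94 on the control arrays. PNP replicate 3 was the highest array and PNP replicate 1 the lowest, for a difference of -0.090 (SE 0.12, adjusted p = 0.94). Rb1, the retinoblastoma gene, had -0.998, -1.50 and -1.001 on the PNP arrays, against -1.50, -1.23 and -1.30 on the control arrays. PNP replicates 1 and 3 were above every control and PNP replicate 2 lay level with the lowest control, and the difference was 0.18 (SE 0.15, adjusted p = 0.922). The INK4 inhibitor Cdkn2c and the pocket protein Rbl1 differed by 0.016 and -0.079.

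Of the 6 tested transcription factors, 4 had negative differences, where 63.0% of all genes had positive ones, and none passed the test. Foxm1, which with B-MYB and MuvB turns on mitotic genes, had 0.92, 1.30 and 0.64 on the PNP arrays, against 1.18, 1.01 and 1.12 on the control arrays. Mybl2, the gene of B-MYB itself, had 0.44, 0.79 and 0.33 on the PNP arrays, against 0.60, 0.66 and 0.68 on the control arrays. In both genes PNP replicate 2 was the highest of all 6 arrays and PNP replicates 1 and 3 the lowest, so that the mean differences of -0.15 (SE 0.16, adjusted p = 0.946) and -0.13 (SE 0.13, adjusted p = 0.944) sit among PNP values that straddle the controls. E2f1, an activator of S phase genes, had 0.79, 0.72 and 0.51 on the PNP arrays, against 0.82, 0.76 and 0.80 on the control arrays. PNP replicate 3 alone was clearly low, and the difference was -0.12 (SE 0.10, adjusted p = 0.927).

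E2f7, an atypical E2F that represses S phase genes, went the other way with -1.38, -1.50 and -1.26 on the PNP arrays, against -1.61, -1.68 and -1.51 on the control arrays. All PNP values were above all control values, and the difference was 0.22 (SE 0.10, adjusted p = 0.791, unadjusted p = 0.0641). A second E2f7 probe, with 4 outlier spots kept, gave -0.26 (SE 0.24), so the direction of this gene rests on which probe is read. The activators E2f2 and E2f3 differed by -0.17 and 0.064, and the other atypical factor E2f8, read with 2 outlier spots kept, by -0.16, all with overlapping groups. A second E2f2 probe, with no outlier spot, gave -0.48 (SE 0.20, unadjusted p = 0.0425, adjusted p = 0.709 over all tested probes).

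No mitotic kinase or checkpoint gene passed the test, and the 95% intervals of the 6 tested all lay within 1.5-fold. Plk1, the polo kinase of mitotic entry and spindle assembly, had 0.79, 1.03 and 0.76 on the PNP arrays, against 0.79, 0.46 and 0.74 on the control arrays. Control replicate 2 was the lowest array and PNP replicate 2 the highest, with a difference of 0.20 (SE 0.13, adjusted p = 0.878). Aurka, the centrosomal Aurora kinase, had 0.63, 0.99 and 0.68 on the PNP arrays, against 0.88, 0.50 and 0.81 on the control arrays. Again PNP replicate 2 was highest and control replicate 2 lowest, while the other 4 arrays were mixed, and the difference was 0.035 (SE 0.14, adjusted p = 0.979). Aurkb, the Aurora kinase that corrects faulty attachments, had -1.57, -1.34 and -1.85 on the PNP arrays, against -1.59, -1.63 and -1.47 on the control arrays. The extremes were both PNP arrays, and the difference was -0.023 (SE 0.14, adjusted p = 0.985).

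Bub1b, whose product BUBR1 is part of the inhibitor that holds the anaphase-promoting complex, had 1.42, 1.60 and 1.29 on the PNP arrays, against 1.35, 1.26 and 1.51 on the control arrays, a difference of 0.063 (SE 0.12, adjusted p = 0.959) between overlapping groups. Mad2l1, which encodes the checkpoint protein MAD2, was read with 2 outlier spots kept and had 3.00, 2.93 and 2.80 on the PNP arrays, against 2.92, 2.87 and 2.89 on the control arrays. The control arrays fell within the range of the PNP arrays, and the difference was 0.018 (SE 0.097, adjusted p = 0.982). Cdc20, the activator that the checkpoint restrains, had 2.49, 2.48 and 2.39 on the PNP arrays, against 2.50, 2.24 and 2.42 on the control arrays, with a difference of 0.069 (SE 0.10, adjusted p = 0.951) and overlap. Bub3, which brings the checkpoint kinases to kinetochores, was the only gene of the role without overlap. Its signals were 2.19, 2.15 and 2.16 on the PNP arrays, against 2.02, 2.05 and 2.13 on the control arrays, and the difference was 0.099 (SE 0.087, adjusted p = 0.927). Bub1 and Ttk, both checkpoint kinases, differed by -0.16 and -0.078 with outlier spots kept.

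At kinetochores, Cenpe, the motor that moves chromosomes to the spindle equator, Cenpf, a protein of the outer kinetochore, and Ndc80 and Nuf2, partners in the complex that grips microtubules, differed by 0.071, -0.15, -0.034 and 0.14. The centromeric histone gene Cenpa differed by 0.066 with outlier spots kept. The groups overlapped for all 5 genes, and adjusted p-values lay between 0.942 and 0.982.

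Spindle and cytokinesis genes held the lowest p-values in both directions. Kif20a, a kinesin of the central spindle needed to finish cell division, had 2.53, 2.49 and 2.54 on the PNP arrays, against 2.38, 2.16 and 2.17 on the control arrays. The PNP arrays agreed closely and were above every control, by 0.28 (SE 0.099, adjusted p = 0.74, unadjusted p = 0.0206), which is a fold of 1.22. Anln, which encodes anillin, the scaffold of the contractile ring, had -2.46, -2.10 and -2.14 on the PNP arrays, against -1.67, -2.07 and -1.73 on the control arrays. Every PNP value was below every control value, although control replicate 2 and PNP replicate 2 were nearly level, and the difference was -0.41 (SE 0.15, adjusted p = 0.74, unadjusted p = 0.023). A second Anln probe, marked as outlier on all 6 arrays, differed by 0.14 (SE 0.13). The 2 probes thus pointed in opposite directions. The Anln promoter held 2 CHR elements and no CCAAT box.

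Kif11, the motor that pushes spindle poles apart, had 0.33, 0.48 and 0.19 on the PNP arrays, against 0.55 and 0.51 on control replicates 1 and 3. Its value on control replicate 2 was left out as an outlier spot, all PNP values were below the 2 controls, and the difference was -0.19 (SE 0.12, adjusted p = 0.878). With that spot kept, control replicate 2 read 0.34, inside the PNP range, and the difference was -0.13 (SE 0.12). Kif23, a central spindle kinesin, and Kif2c, which depolymerises microtubules at centromeres, differed by -0.20 and -0.047. Tpx2, Prc1 and Ect2, which serve spindle assembly, the central spindle and the start of furrowing, were read with outlier spots kept and differed by 0.095, 0.031 and -0.12. All these groups but those of Kif11 overlapped.

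The 2 chromosome proteins used as marks of proliferating cells did not pass the test either. Top2a, the topoisomerase that untangles sister chromatids, had 2.13 and 1.96 on PNP replicates 1 and 3, against 1.87 and 2.09 on control replicates 2 and 3, a difference of 0.066 (SE 0.14, adjusted p = 0.963). Mki67, the gene of the Ki-67 antigen, had 2.68 and 2.51 on PNP replicates 1 and 3, against 2.73, 2.51 and 2.67 on the 3 controls. Its difference was -0.039 (SE 0.12, adjusted p = 0.975, 95% interval -0.33 to 0.25), and the values of both genes overlapped between groups. Neither gene had a usable spot on PNP replicate 2, so both compare fewer arrays than most genes here.

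The values by array showed more structure than the group means. In 23 of the 37 genes with a value on all 3 PNP arrays, PNP replicate 2 was the highest PNP array, beside 32.2% of all genes with 3 PNP values. Among the 35 genes with 6 values, PNP replicate 2 was the highest array in 16 (20.9% of all genes), PNP replicate 3 the lowest in 14 (17.7%) and control replicate 2 the lowest in 13 (22.5%). The median deviation of these 35 genes from their own mean was 0.030, 0.12 and -0.11 on PNP replicates 1, 2 and 3, against 0.019, -0.066 and 0.052 on control replicates 1, 2 and 3. For all genes the same medians were 0.075, 0.0049 and 0.0058 on the PNP arrays, against 0.011, -0.041 and -0.048 on the control arrays. The cell cycle genes therefore spread more widely among arrays of the same treatment than the 0.029 by which the groups differed, and their median SD was 0.157 among PNP arrays, against 0.118 among control arrays (all genes 0.148 against 0.105). Outlier spots fell unevenly on the same arrays: of 86 probes of these genes, 16, 24 and 19 were marked on PNP replicates 1, 2 and 3, against 20, 14 and 10 on control replicates 1, 2 and 3, and the part of these spots in the pattern was not tested.

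**Figure D2:**
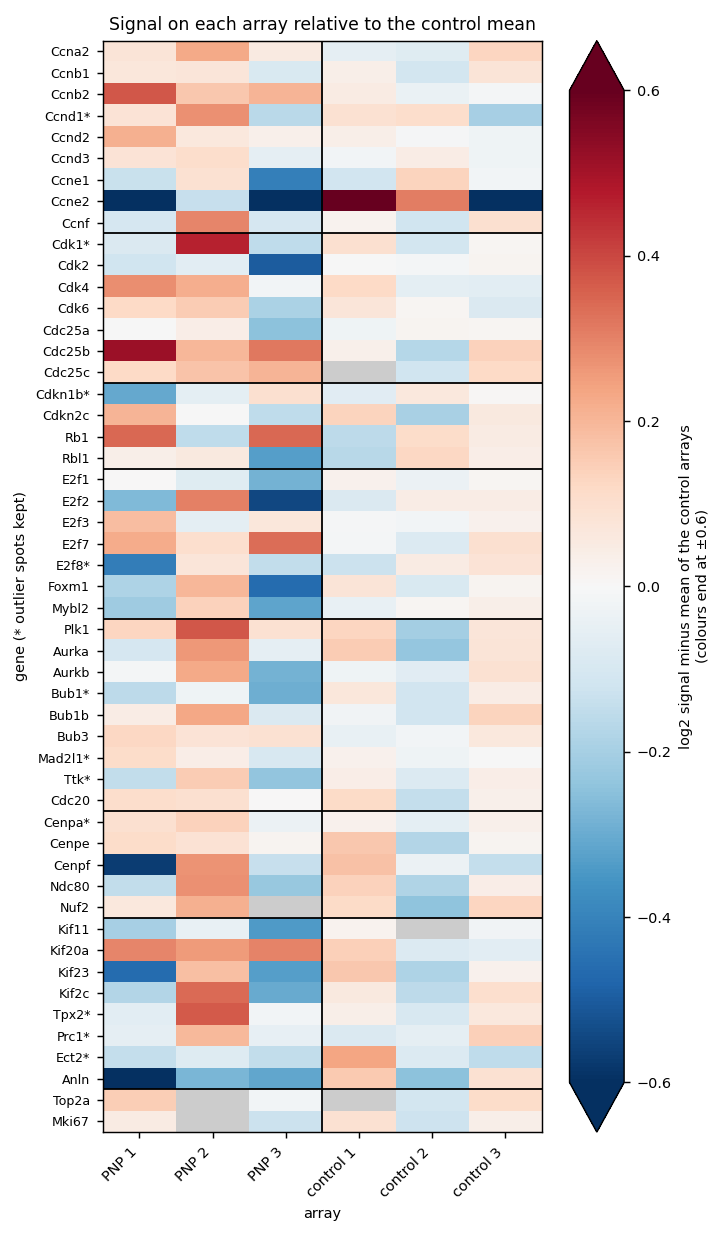
Scaled log2 signal of each gene on each of the 6 arrays minus the mean of the control arrays (colour, log2 scale ending at ±0.6, grey where a spot was left out), with genes grouped by role. PNP replicate 2 is mostly red and PNP replicate 3 mostly blue, within the same treatment.

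The position of the arrays on the slide ran alongside this pattern. PNP replicates 1 and 3 and control replicate 2 lay in even slide columns, and PNP replicate 2 and control replicates 1 and 3 in odd columns. Within odd columns, PNP replicate 2 was above the mean of control replicates 1 and 3 for 31 of 38 genes (all genes 52.2%), with a median difference of 0.12 (all genes 0.010). Within even columns, the mean of PNP replicates 1 and 3 was above control replicate 2 for 22 of 39 genes (all genes 65.4%), with a median of 0.094 (all genes 0.080). Of the 37 genes with both values, 17 were positive in both (45.9%, beside 33.5% of all genes) and 3 negative in both. Another 14 were positive in odd and negative in even columns (37.8%, beside 18.9% of all genes) and 3 the reverse. Of all 12381 genes with both values, 1916 were negative in both and 3978 were negative in odd and positive in even columns. Slide row also ran with treatment: PNP replicate 1 shared row 1 with the 3 controls, and PNP replicates 2 and 3 lay in row 2. Within row 1 the median difference was 0.057 (all genes 0.10). Each of these values rests on 3 or 4 arrays, and the part of slide position in the pattern was not tested.

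Genes differed in how they behaved across columns. Kif20a was 0.22 in odd and 0.38 in even columns, Ccnb2 0.14 and 0.33, Cdc25b 0.11 and 0.59, and Plk1 0.27 and 0.31, so these were positive in both. Anln was negative in both, at -0.39 and -0.23. Except for Plk1, these signs were fixed in advance, because the PNP and control values of those genes did not overlap. They therefore add nothing on how firm those directions are. The sign turned for Foxm1 (0.15 in odd and -0.23 in even columns), Mybl2 (0.15 and -0.28), E2f2 (0.33 and -0.45), Ccne1 (0.16 and -0.40) and Cenpf (0.25 and -0.32). All 6 tested transcription factors had a median of 0.10 in odd and -0.17 in even columns. With slide column as a block in the limma fit, none of the 40 genes passed, the lowest adjusted p was 0.534, and the median was 0.077 (all genes 0.032).

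**Figure D3:**
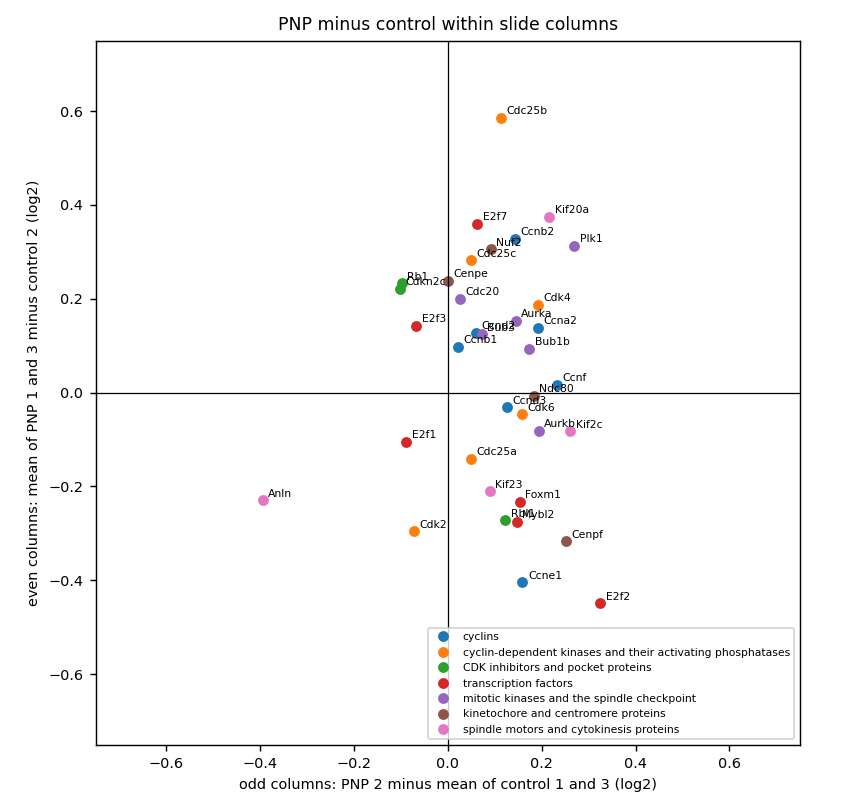
Log2 difference, PNP minus control, within odd slide columns (x axis, PNP replicate 2 against control replicates 1 and 3) and within even columns (y axis, PNP replicates 1 and 3 against control replicate 2), a point a gene, coloured by role. Ccne2 (0.014 and -2.00) lies outside the axes, and the points at lower right changed sign between columns.

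Different probes of a gene gave a further measure of how firm a direction is. Of the 53 genes, 23 had over 1 probe that could be read with outlier spots kept, and in 13 all probes shared a sign while in 10 they did not (Anln, Ccnb1, Ccnf, Cdk6, Cenpf, E2f7, Foxm1, Kif23, Kif2c and Prc1). The share over all genes with several probes was not taken, so whether these genes are unusual in this cannot be said. Cdk6 had probes at 0.028 (SE 0.13), -0.33 (SE 0.16) and 0.26 (SE 0.17), the first being the probe read above. Foxm1 had that probe at -0.15 (SE 0.17) and another at 0.17 (SE 0.12). Kif20a, Cdc25b and Ccnb2 had a single readable probe each, so no second probe bears on them.

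**Figure D4:**
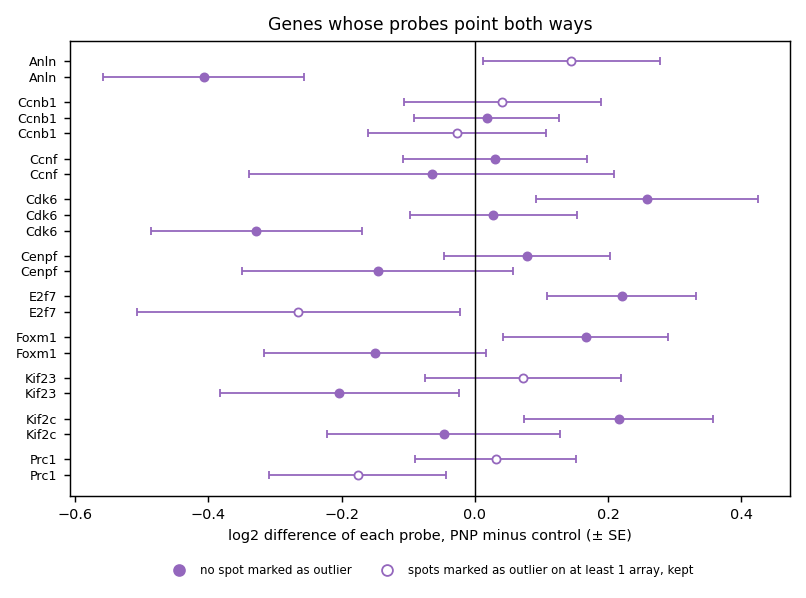
Log2 difference, PNP minus control, of each probe of the 10 genes whose probes differ in sign, with its standard error. Filled points are probes with no spot marked as outlier on any array and open points are probes with marked spots kept. For Anln, Ccnb1, E2f7 and Kif23 a filled and an open point lie on opposite sides of 0.

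Beyond the 53 genes, 126 further genes of the same machinery were listed by function, of which 104 could be tested. None passed an adjusted p of 0.05 in limma's test, and 47 differences were positive and 57 negative, with a median of -0.012 (all genes 0.043). Of all genes, 63.0% were positive, which also stands beside the counts of each list below. At an unadjusted p below 0.05, none was higher with PNP (5.02% of all genes) and 1 was lower (1.49% of all genes), the spindle kinesin Kif15. It had -4.20, -3.27 and -3.62 on the PNP arrays, against -3.08, -3.12 and -3.18 on the control arrays, all PNP values below all control values, with a difference of -0.57 (SE 0.21, adjusted p = 0.74).

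Among 11 tested CDK inhibitors, pocket proteins and E2F partners, the smallest p-values were those of the INK4 inhibitor Cdkn2d at 0.24 (SE 0.12, adjusted p = 0.805) and the RB-binding chaperone Rbbp4 at 0.13. Cdkn1a, the p53 target that encodes the CDK inhibitor p21, had -0.43 and -0.12 on PNP replicates 1 and 2, against -0.37, -0.26 and -0.35 on the controls, a difference of 0.049 (SE 0.13, adjusted p = 0.967). A second Cdkn1a probe, with 2 outlier spots kept, had -0.41, -0.44 and -0.40 on the PNP arrays, against -0.24, -0.031 and -0.23 on the control arrays, without overlap and with a difference of -0.25 (SE 0.11, adjusted p = 0.777). The anaphase-promoting complex and its partners (18 tested, 12 positive) were led by Ube2s, the enzyme that extends its ubiquitin chains, at 0.20 (SE 0.11, adjusted p = 0.845) and by the subunit Cdc26 at -0.14. Of 20 condensin, cohesin and separation genes, 8 were positive, with the cohesin subunit Stag1 at -0.27 (SE 0.13, adjusted p = 0.805) and securin, Pttg1, at 0.19. A second Pttg1 probe, with 3 outlier spots kept, gave -0.19 (SE 0.21).

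Other kinetochore, centromere and passenger complex genes (26 tested, 18 negative, median -0.081) had Ska3 at -0.72 (SE 0.37, adjusted p = 0.811) and Cenpt at -0.29. Ska3 had -4.89, -4.69 and -4.63 on the PNP arrays, against -3.17, -4.91 and -3.98 on the control arrays, so control replicate 1 stood well above the rest, and a second Ska3 probe with 2 outlier spots kept gave 0.15 (SE 0.25). Birc5, which encodes survivin of the passenger complex, had 3.32, 3.28 and 3.14 on the PNP arrays, against 3.20, 3.04 and 3.13 on the control arrays, a difference of 0.12 (SE 0.098, adjusted p = 0.912) with overlap. Among 17 other spindle and cytokinesis genes, of which 10 were positive, Aspm, a spindle pole protein, followed Kif15 at -0.29 (SE 0.13, adjusted p = 0.766). This Aspm probe was dim, and a brighter one with 5 outlier spots kept gave -0.42 (SE 0.14). Further Kif15 probes gave -0.20 (SE 0.22) and -0.33 (SE 0.23) in the fit that keeps outlier spots. Ensa, an inhibitor of the phosphatase PP2A at mitotic entry, was at -0.33 (SE 0.16, adjusted p = 0.795), and Ccnh, the cyclin of the CDK-activating kinase, at 0.17, among 12 further genes of mitotic entry. In the fit that keeps outlier spots, further Ensa probes gave -0.48 (SE 0.22) and -0.22 (SE 0.11), and further Ccnh probes 0.024 and -0.035. Second probes of Stag1, Ube2s and Birc5 gave -0.12, 0.10 and 0.080 in that fit, each with the sign of the first.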

How the data were processed

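Total RNA of TM3 cells was labelled with Cy3 after linear amplification, per the labels' protocols, but the deposited columns are those of a red channel. The deposited intensity values came from Agilent Feature Extraction 11.5.1.1 per the file headers (10.7 per the submitters' processing notes), with background subtracted and low values replaced by a surrogate. As 14.4% of spots had a negative background-subtracted signal, folds of dim probes may be altered by these surrogates, which was not tested. A normalized table deposited by the authors held log2 values whose columns matched their own arrays (r from 0.9996 to 1.00). It is uncentred, with a column median of 8.27, and was used as an alternative. The array was designed on build mm9, per the file headers.

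The measure was log2 of the processed signal minus the array's 75th percentile over non-control spots. The planned green channel was replaced by the red one. Outlier spots were left out, spots of a probe averaged, and probes tested if either group had all 3 arrays well above background and both had at least 2 values (27221 probes). RefSeq accessions (GRCm38.p6) named 33767 of 56605 probes. Each gene was read on its brightest tested probe. PNP minus control was tested with limma 3.58.1 in R 4.3.3 with the data.table package (version 1.17.8), by lmFit and eBayes, two-sided and without covariates, Benjamini-Hochberg adjusted over 13138 genes, of which 2028 lacked a value on at least 1 array. Genes with too many outlier spots were read from the fit that keeps them, over 15046 genes. The procedure was tested on simulated data. Array number limits the precision.

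Members, lists and tests were chosen with earlier results of these data known. Values on each array are given for 21 central genes and for the 4 of smallest p in each direction, and from each further list the 2 of smallest p, with Cdkn1a and Birc5. Bub3, Cdk6 and the genes with probes or columns of both signs were picked after their values were seen. Alternatives covered scaling, background correction, filters, outlier spots, probe choice, slide position, the replicate number and each array left out.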

Additional observations from a re-analysis of the deposited data

How the results depend on the processing

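No cell cycle gene and no further listed gene passed an adjusted p of 0.05 under any of the 17 alternatives run. Over all genes 0 passed, and 1 gene did with slide column as a block, without PNP replicate 2 and without control replicate 2. The median of the cell cycle genes changed sign between settings, from -0.032 (without control replicate 2) to 0.094 (without PNP replicate 3), and ran from -0.092 to 0.045 relative to all genes. The SD of their median between replicate arrays was 0.0906. Without PNP replicate 2, 5 of the 40 cell cycle genes were higher and 7 lower at an unadjusted p below 0.05, with a lowest adjusted p of 0.254. The count over all 13138 genes rose as well, from 856 with all arrays to 1745 without PNP replicate 2, both directions together. Signs were less firm: 11 of the 23 tested genes named by rule turned under at least 1 alternative, the cause of which was not tested. Scaling on the array median gave -0.042 for Ccnb1, -0.026 for Aurka and -0.00782 for Top2a. Ccnb1 also turned under quantile normalization (-0.00865), in the authors' deposited values (-0.00844) and with the mean of its probes (-0.13), where Foxm1 was 0.00804. Normexp, run on median signals because no mean signal column was used, gave -0.050 for Ccnb1, 0.041 for Aurkb and -0.017 for Bub1b. Keeping outlier spots gave 0.046 for Mki67, and brought in other probes that turned E2f7 (-0.26) and Anln (0.14) and moved Aurkb to -0.22 and Top2a to 0.15. With slide column as a block Aurkb was 0.056 and Mki67 0.087, and with slide row as a block E2f1 was 0.00253, Aurka -0.10 and Mki67 0.050. Leaving out 1 array at a time gave -0.036 to 0.072 for Ccnb1, -0.046 to 0.18 for Top2a, -0.080 to 0.11 for Aurka, -0.021 to 0.14 for Bub1b, -0.32 to 0.00644 for Foxm1, -0.15 to 0.11 for Aurkb, -0.13 to 0.050 for Mki67 and -0.00309 to 0.13 for Cdc20. It moved these genes by over 1.5 times without turning them: 0.10 to 0.25 for Cdk4, -0.31 to -0.093 for Cdk2, 0.066 to 0.18 for Ccna2, -0.27 to -0.021 for Ccne1, -1.77 to -0.73 for Ccne2, 0.095 to 0.34 for Rb1, -0.18 to -0.034 for E2f1, -0.26 to -0.036 for Mybl2, 0.096 to 0.26 for Plk1 and -0.27 to -0.12 for Kif11.

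Deviations of same-numbered samples correlated at -0.312, -0.224 and -0.0259. Of samples that shared even slide columns, control replicate 2 correlated with PNP replicate 1 at 0.245 and with PNP replicate 3 at 0.0368. Of those in odd columns, PNP replicate 2 correlated with control replicate 1 at 0.266 and with control replicate 3 at 0.00785. Slide column thus ran with only some of these correlations, as other pairs in shared columns were near 0. PNP replicate 1 and control replicate 3, in different columns, correlated at 0.0120. Deviations were taken from the group mean and sum to 0 within a group, so the correlations constrain each other. They cannot show whether replicate numbers pair the samples. With the replicate number as a block, 0 of 39 tested cell cycle genes passed and their median was 0.028.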

Other observations

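Cdkn2a and Cdkn2b stand side by side on chromosome 4 in the RefSeq order of genes, after Ifne and Mtap and before Dmrta1 and Zfp352. Mtap, a methionine salvage enzyme, was well above background on all 6 arrays, with scaled log2 signals of 2.44, 2.35 and 2.37 on the PNP arrays, against 2.25, 2.21 and 2.24 on the control arrays. Cdkn2a, Cdkn2b and Dmrta1 were above background on 0 arrays, and Ifne on 1 array, control replicate 3 (-3.45), with 1 spot of its probe marked as outlier. Of 3 Zfp352 probes, 1 was above background on all 6 arrays, with -1.13, -1.13 and -1.50 on the PNP arrays, against -1.22, -1.03 and -1.30 on the control arrays, and the others on 0 and 1 arrays.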
